A study of Mus musculus with 36 samples.

Results

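The step from 12 to 24 h after lipopolysaccharide (LPS) was examined in livers of C57BL6/J mice held at 22 °C. LPS, or endotoxin, comes from the outer membrane of Gram-negative bacteria and triggers inflammation throughout the body. The step was measured in 10 of the 36 libraries of the series, 5 taken 24 h after injection and 5 taken 12 h after injection, chosen by their titles and by their labelled temperature and time. Further groups were used for comparison: 5 libraries at 24 h and 4 at 12 h from mice at 30 °C, and 4 libraries at 0 h at 22 °C. For the position of libraries between baseline and 12 h, 5 libraries at 0 h and 4 at 4 h from 30 °C and 4 at 4 h from 22 °C were also used. All groups share the strain and the tissue, and all groups at 12 or 24 h received LPS. The labels give no dose, sex, age or time of day of sampling. The labels name no later group without LPS. The time since LPS therefore cannot be told apart from clock time, handling or feeding. Nor is it stated that each library of a group is a separate animal, and p-values therefore reflect the spread among libraries, which may be technical.

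In the liver, LPS drives an early wave of cytokines, then genes switched on by type I interferon and by interferon gamma, and a slower acute phase response in which hepatocytes secrete defence proteins. During that response hepatocytes lower many of their metabolic genes, among them those for drug metabolism, bile acid handling and amino acid breakdown. Room temperature is mildly cold for mice, which spend energy on keeping warm at 22 °C, whereas 30 °C lies near the range in which they need not.

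The values are the deposited signal, scaled reads per base, from CEL-Seq2 libraries, which read the 3' ends of transcripts. Libraries at 24 h held 779000 to 931000 estimated reads and those at 12 h 798000 to 1583000, a difference in depth between the groups (exact permutation test, two-sided p = 0.0397). Within these 10 libraries a signal of 2.05 to 4.06 was taken as 3 reads, depending on the library, and values near it carry little information. For this, the commonest value above 0 in a library was taken as 1 read. Only 16.8% to 18.1% of the values above 0 were whole multiples of it. Read numbers, and depths drawn from them, are therefore approximate. The correlation of log2 values was 0.861 to 0.899 among the 24 h libraries, 0.884 to 0.929 among the 12 h libraries and 0.819 to 0.887 between them. Annotated genes made of satellite repeat took 0.246% to 1.18% of the signal at 24 h, against 0.0407% to 0.155% at 12 h (exact permutation p = 0.00794, the smallest that 5 against 5 allows). At 30 °C the same share was 0.245% to 1.10% at 24 h and 0.0256% to 0.168% at 12 h. Its part in the results was not tested, but list counts of the step that moved by over 1.5 times with that share as a term of the fit are given with it. The tissue label was checked with hepatocyte markers. Alb, serum albumin, had a signal of 746 to 1094 at 24 h and 945 to 1449 at 12 h, and the summed signal of the 9 tested hepatocyte markers was 23367 to 32742 at 24 h and 25246 to 37105 at 12 h.

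Between 12 and 24 h at 22 °C more genes fell than rose. Of 8702 genes tested with limma, 350 were higher at 24 h (4.02% of those tested) and 574 were lower (6.60%), 924 in all (10.6%), at a Benjamini-Hochberg adjusted p under 0.05. The median log2 difference over all tested genes was 0.01. At 30 °C, in libraries that share none with these, the same step moved 1006 genes up (11.6%) and 828 down (9.52%). Of the 350 genes that rose at 22 °C, 133 also rose at 30 °C, 2 fell and 215 did not pass. Of the 574 that fell at 22 °C, 246 also fell at 30 °C, 55 rose and 273 did not pass. The difference between the steps, 22 °C minus 30 °C, was itself tested in the same fit. It was positive for 163 genes (1.87%) and negative for 503 (5.78%), 7.65% of tested genes in all.

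How far the liver as a whole had moved was described on an axis drawn from the 30 °C libraries alone, with the mean of 30 °C at 0 h set to 0 and that of 30 °C at 12 h set to 1. Over the 1680 genes raised at 12 h against 0 h at 30 °C, the 22 °C libraries stood at 0.860 ± 0.055 at 24 h and 1.008 ± 0.036 at 12 h (SD, n = 5 each). The 30 °C libraries at 24 h stood at 0.636 ± 0.069 (n = 5). Over the 1649 genes lowered in that comparison, the 22 °C libraries stood at 0.867 ± 0.072 at 24 h and 0.810 ± 0.069 at 12 h. There the 30 °C libraries at 24 h stood at 0.612 ± 0.101. Thus the raised genes lay a little below the 12 h level at 22 °C, and the ranges of the lowered genes at 24 and 12 h overlapped. These positions are a description, since the 30 °C libraries define the axis.

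**Figure D1:**
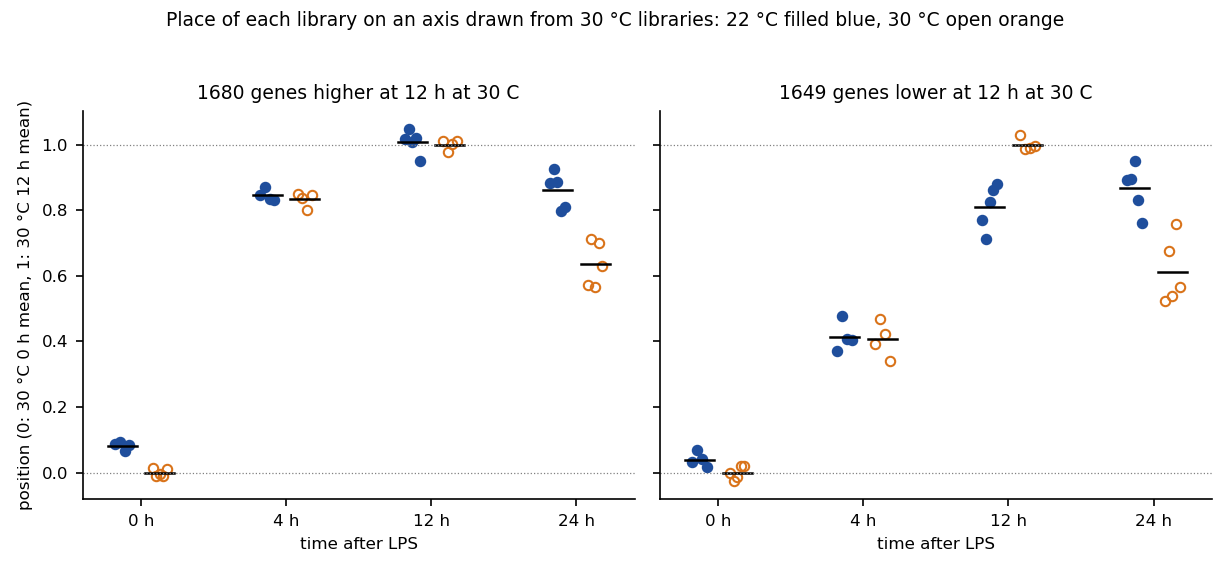
Position of each library between the 30 °C 0 h mean (0) and the 30 °C 12 h mean (1), vertical axis, at each time after LPS, for the 1680 genes raised (left) and the 1649 genes lowered (right) at 12 h at 30 °C. Points are libraries, filled for 22 °C and open for 30 °C, and lines are group means. At 24 h the 22 °C libraries sit at 0.796 to 0.925 for raised genes, above all 30 °C libraries of that time.

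The interferon programme fell. Of 31 tested genes of the type I interferon response, 23 fell, none rose, and the median log2 difference was -2.05, against 0.01 for all genes. Of 22 tested genes of the interferon gamma response, the guanylate-binding proteins, immunity-related GTPases and chemokines, 20 fell, none rose, and the median was -1.87. Of all genes tested, 6.60% fell and 4.02% rose. At an unadjusted p under 0.05 there was likewise no member higher in either list. Fewer cells of a type and less RNA per cell cannot be told apart in bulk tissue, here or in what follows.

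Ifit3, which binds viral RNA together with other IFIT proteins (chr19:34583531-34588731, GRCm38), had a signal of 108, 185, 75.9, 46.6 and 49.8 in the 24 h libraries and 1256, 1596, 756, 591 and 294 in the 12 h libraries. No 24 h library reached the lowest 12 h library, replicate 5. The log2 difference was -3.22 ± 0.35 (SE, limma adjusted p = 8.63e-08). Ifi47, a GTPase of the same wave that interferon gamma also induces (chr11:49076587-49096974), had 211, 254, 196, 101 and 183 at 24 h and 1503, 1729, 1252, 1384 and 1315 at 12 h. Its groups lay far apart, with a difference of -2.97 ± 0.20 (adjusted p = 3.91e-12), and its 0 h libraries had 111 to 148. Mx1, an antiviral GTPase, and Ifit2 had signals of 1.09 to 8.93 and 0 to 4.29 at 24 h, against 9.43 to 118 and 9.51 to 60.9 at 12 h. Both fell, but 3 of the 5 24 h libraries for Mx1 and 4 for Ifit2 lay at or under 3 reads, so the size of these falls depends on the constant added before the log. Ifit3 and Ifit3b are near-identical copies between which reads may be split, and so are Tgtp1 and Tgtp2.

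Iigp1, an interferon-inducible GTPase that attacks the vacuoles of intracellular parasites, had 602, 726, 851, 505 and 273 at 24 h and 2400.2, 2339, 2517, 2233 and 2454 at 12 h. The groups did not overlap (log2 difference -2.11 ± 0.18, adjusted p = 1.74e-09). Gbp2, a guanylate-binding protein that opens pathogen vacuoles (chr3:142620602-142638008), had 398, 547, 364, 221 and 237 at 24 h and 1136, 1369, 1216, 1279 and 798 at 12 h, again without overlap, and its difference was -1.77 ± 0.25 (adjusted p = 7.57e-06). Cxcl9, a chemokine that draws T cells (chr5:92321347-92328079), had 1084, 1245, 1118, 747 and 983 at 24 h and 2028, 2185, 1838, 1820.2 and 1973 at 12 h, a smaller fall of -0.94 ± 0.15 (adjusted p = 5.95e-05). Against 0 h, where Cxcl9 had 42.6 to 68.3, it was 4.27 log2 units higher at 24 h (adjusted p = 9.16e-21). Against 0 h at 22 °C, with which the step shares its 24 h libraries, 1654 of all genes were higher (19.0%) and 1569 lower (18.0%) at 24 h. By that comparison 11 of the 31 type I genes were higher and 4 lower, and 11 of the 22 interferon gamma genes were higher and 2 lower.

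The fall was smaller at 22 °C than at 30 °C for part of the interferon gamma list. The difference of steps was positive for 10 of its 22 tested members and negative for 1, where 1.87% and 5.78% of all genes were. For type I genes the counts were 3 and 1 of 31, and 5 positive when 24 h replicate 5 at 22 °C was left out. Gbp2 differed most clearly: at 30 °C it had 15.2 to 33.9 at 24 h and 550.2 to 838 at 12 h, a step of -4.84, and the steps differed by 3.07 ± 0.36 (adjusted p = 1.09e-06). Gbp7 differed by 1.67 ± 0.25 (adjusted p = 2.21e-05) and Iigp1 by 1.24 ± 0.27 (adjusted p = 0.00222). Ifit3 and Ifi47 had differences of -0.97 ± 0.51 and 0.62 ± 0.30 that did not pass (adjusted p = 0.299 and 0.232).

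The promoters of these genes were read for the letters of the interferon-stimulated response element, GAAA, any 2 bases and GAAA again, on either strand, which IRF factors bind. Sequences come from the RefSeq promoter table (GRCm38.p6), and the 250 bases before the first-listed start were searched. The letters stood in 11 of the 14 falling interferon gamma genes with an entry (78.57%), in 6 of 16 falling type I genes (37.5%), and in 2.978% of all 32841 promoters. That last share counts every listed start, so a gene with several starts enters it more than once. Other motifs were also searched and are not given for these lists. The windows below were chosen after the values were seen, because their genes move together in this step. Capitals mark only the match nearest the start, read on the strand of the gene. Further matches stay in lower case, and the windows of Irgm1, Ifit1 and Isg15 hold such matches, in part overlapping the capitals.
Gbp2 (chr3:142620579-142620638, plus strand): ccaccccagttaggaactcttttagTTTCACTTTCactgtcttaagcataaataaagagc
Gbp7 (chr3:142530258-142530317, plus strand): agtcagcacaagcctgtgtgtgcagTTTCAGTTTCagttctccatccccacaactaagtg
Gbp5 (chr3:142496744-142496803, plus strand): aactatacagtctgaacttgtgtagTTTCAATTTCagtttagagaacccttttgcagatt
Igtp (chr11:58199497-58199555, plus strand): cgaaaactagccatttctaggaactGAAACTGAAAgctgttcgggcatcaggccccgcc
Irgm1 (chr11:48871421-48871469, minus strand): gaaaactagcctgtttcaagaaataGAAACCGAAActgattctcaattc
Cxcl10 (chr5:92349068-92349127, minus strand): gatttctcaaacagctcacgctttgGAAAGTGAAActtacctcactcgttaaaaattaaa
Calhm6 (chr10:34128002-34128061, minus strand): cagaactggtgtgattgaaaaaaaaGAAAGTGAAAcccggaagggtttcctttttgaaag
Tgtp1 (chr11:48992289-48992348, minus strand): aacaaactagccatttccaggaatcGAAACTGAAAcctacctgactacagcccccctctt
Ifit3 (chr19:34583382-34583441, plus strand): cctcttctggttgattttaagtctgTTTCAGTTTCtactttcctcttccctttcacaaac
Ifit1 (chr19:34640779-34640838, plus strand): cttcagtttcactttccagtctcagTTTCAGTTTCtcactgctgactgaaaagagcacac
Isg15 (chr4:156200850-156200909, minus strand): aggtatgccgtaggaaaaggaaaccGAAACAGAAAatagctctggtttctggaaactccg
Positions are counted from the RefSeq start, which can differ from the GENCODE gene start given above. In Gbp2 the letters lie inside the GENCODE span. The marked letters lie 59 to 50 bases before the start in Gbp2, 24 to 15 in Irgm1 and 213 to 204 in Cxcl10. A match is a description of letters and not a measured site.

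**Figure D2:**
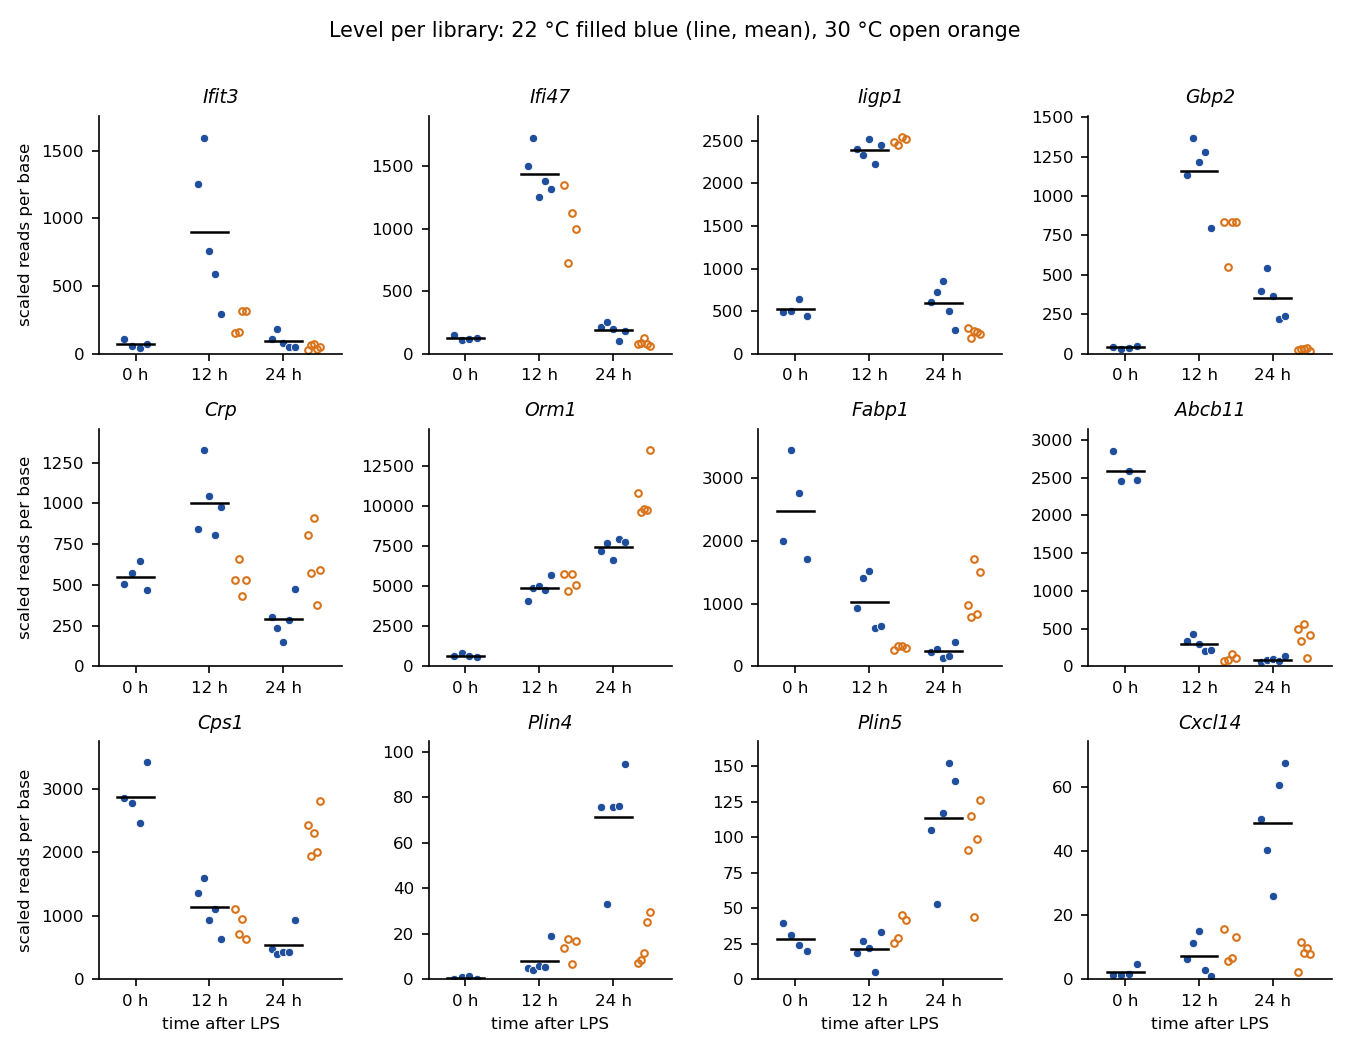
Signal (scaled reads per base, vertical axes start at 0) of 12 genes in each library by time after LPS, for 22 °C at 0, 12 and 24 h (filled, line at the mean) and for 30 °C at 12 and 24 h (open). At 22 °C the 24 h libraries of Ifit3 (46.6 to 185) and Ifi47 (101 to 254) lie below every 12 h library, and those of Plin4 (33.2 to 94.8) lie above.

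Cytokines, signalling brakes and antigen presentation also fell in part, in a step where 6.60% of all genes fell and 4.02% rose. Of 20 tested cytokines and chemokines 7 fell, among them Il6, Il33, Ccl4 and Cxcl1, and 1 rose, Cxcl14. The count that fell was 4 without 12 h replicate 2. Of 23 tested genes of NF-kB feedback 8 fell and none rose (5 without 12 h replicate 2, and 13 with 5 added before the log), with none higher at an unadjusted p under 0.05. Socs1, a brake on interferon signalling (chr16:10782240-10785536), had 134, 142, 162, 37.5 and 75.8 at 24 h and 383, 651, 489, 676 and 386 at 12 h. The groups were well apart, with a log2 difference of -2.35 ± 0.40 (adjusted p = 0.000102). Socs2, a brake on growth hormone signalling, fell by 1.71 on the log2 scale (adjusted p = 8.72e-05), with 22.2 to 56.8 at 24 h and 92.4 to 147 at 12 h. Tlr2, a receptor for bacterial lipoproteins, had 0 to 2.33 at 24 h, all at or under 3 reads, and 9.10 to 28.7 at 12 h. Of 21 tested antigen presentation genes 6 fell and none rose, none at an unadjusted p under 0.05 either. They include Tap1, a subunit of the peptide pump of the endoplasmic reticulum (24.6 to 45.9 at 24 h, 77.5 to 115 at 12 h, log2 difference -1.55 ± 0.22), Psmb9, an immunoproteasome subunit (-2.34 ± 0.47), and B2m, the light chain of class I molecules (-0.55 ± 0.13).

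Cxcl14, a chemokine of epithelia with antimicrobial activity (chr13:56288643-56296551), went against the other chemokines. It had 50.1, 40.4, 26.0, 60.6 and 67.4 at 24 h and 6.18, 11.2, 15.0, 2.91 and 1.03 at 12 h, and 0 h libraries had 1.25 to 4.81. Every 24 h library was above every 12 h library, 2 of which lay at or under 3 reads, and the log2 difference was 2.88 ± 0.55 (adjusted p = 0.000433). At 30 °C it had 2.35 to 11.6 at 24 h and 5.76 to 15.6 at 12 h, and the steps differed by 3.23 ± 0.79 (adjusted p = 0.00759). Its promoter is shown because Cxcl14 is the single riser of a list whose other changed members fell. Capitals mark, from left to right, letters of the interferon-stimulated element and of the nuclear receptor half-site AGGTCA on the other strand, which 14.03% of all promoters hold.
Cxcl14 (chr13:56296552-56296801, minus strand): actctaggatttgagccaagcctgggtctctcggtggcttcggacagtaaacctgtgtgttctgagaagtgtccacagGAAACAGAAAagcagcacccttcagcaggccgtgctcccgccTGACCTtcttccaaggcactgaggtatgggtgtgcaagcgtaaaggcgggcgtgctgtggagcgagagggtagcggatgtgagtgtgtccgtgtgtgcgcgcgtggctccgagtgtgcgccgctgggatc

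Acute phase proteins stayed high and were rearranged. Against 0 h, 26 of 29 tested members were higher at 24 h at 22 °C and 1 was lower, where 19.0% and 18.0% of all genes were. In the step itself 3 rose and 6 fell, where 4.02% and 6.60% of all genes did, with a median of 0.06. Orm1, a plasma glycoprotein that carries basic drugs (chr4:63344560-63348163), had 7193, 7725, 6671, 7939.6 and 7764 at 24 h and 4089.8, 4884, 5017, 4750.1 and 5728 at 12 h. The groups were separate and the difference was 0.61 ± 0.11 (adjusted p = 0.000253), with 607 to 825 at 0 h. Saa2 and Apcs rose by 0.62 ± 0.20 and 0.68 ± 0.22 (adjusted p = 0.0417 and 0.0449). Only Orm1 of these 3 still passed without any one of 12 h replicates 1, 2, 3 and 4 or 24 h replicates 1 and 5, when the count was 1. Saa1, the near-identical neighbour of Saa2, had 23574 to 31992 at 24 h and 16125 to 23468 at 12 h and did not pass (adjusted p = 0.0749).

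Crp, a pentraxin that tags microbes and is a minor acute phase protein in mice (chr1:172698055-172833031), had 305, 238, 151, 285 and 476 at 24 h and 843, 1330.1, 1043, 809 and 977 at 12 h. All 24 h values were below all 12 h values, with a log2 difference of -1.85 ± 0.22 (adjusted p = 5.12e-07). At 24 h it was also below 0 h, where it had 467 to 648 (adjusted p = 0.000927). At 30 °C Crp had 379 to 908 at 24 h and 435 to 657 at 12 h, and the steps differed by -2.08 ± 0.32 (adjusted p = 3.76e-05). Hamp, which encodes the iron hormone hepcidin and was singled out after its values were seen, had 281 to 409.8 at 24 h and 385 to 1293 at 12 h, with 12 h replicate 5 inside the 24 h range. It fell by 1.31 at 22 °C on the log2 scale and rose by 1.08 at 30 °C, and the steps differed by -2.39 ± 0.42 (adjusted p = 0.000212). Il1rn, the interleukin-1 receptor antagonist, had 196 to 247 at 24 h and 402 to 504 at 12 h (-1.09 ± 0.21, adjusted p = 0.000519), and Lbp, the LPS-binding protein, had 178 to 237 at 24 h and 318 to 352 at 12 h (-0.72 ± 0.14, adjusted p = 0.000482).

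Genes of drug metabolism fell further in part at 22 °C. Of 57 tested members of the cytochrome P450 and xenobiotic list 18 fell and 2 rose, where 6.60% and 4.02% of all genes did. The median was -0.64. By 24 h, 46 of the 57 were below 0 h, against 18.0% of all genes. Cyp2c37 (chr19:39992424-40012243), an enzyme that oxidises fatty acids, had 117, 200.1, 129.8, 108 and 124 at 24 h and 425, 484, 369, 354 and 324 at 12 h, with no overlap (-1.54 ± 0.26, adjusted p = 8.51e-05), and 782 to 1318 at 0 h. Members of the Cyp2c family share sequence, so reads may be split among them. Cyp3a11, a main drug-oxidising enzyme of mouse liver, had 772, 1241, 546, 567 and 543 at 24 h and 1989, 1989.9, 1504, 1733 and 968 at 12 h. Replicate 2 of the 24 h libraries exceeded the lowest 12 h library, and the difference was -1.19 ± 0.28 (adjusted p = 0.00472). Cyp2d9 and Cyp4a12a, which are more abundant in male mouse liver, rose by 1.63 ± 0.39 and 1.80 ± 0.52 (adjusted p = 0.00471 and 0.0215). At 30 °C 17 of the 57 rose and 12 fell, where 11.6% and 9.52% of all genes did. The difference of steps was negative for 16 and positive for 2, against 5.78% and 1.87% of all genes. The half-site letters AGGTCA stood in 6 of the 15 falling members with a promoter entry (40%, first-listed start), against 14.03% of all promoters, counted over every listed start. Other motifs were also searched and are not given for this list.

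Genes of bile acid synthesis and transport, taken as 1 list, moved in both directions. Slco1b2, which takes bile acids and drugs up from blood (chr6:141629518-141686646), had 20.1, 17.0, 21.4, 17.3 and 65.4 at 24 h and 196, 193, 181, 65.1 and 173 at 12 h, against 631 to 948 at 0 h. Replicate 5 stood above the other 24 h libraries and replicate 4 below the other 12 h libraries, and these 2 values met. The difference was -2.59 ± 0.33 (adjusted p = 1.55e-06). Abcb11, the pump that exports bile salts into bile (chr2:69238282-69342616), had 61.5, 86.6, 96.4, 75.4 and 131 at 24 h and 342, 426, 300.0, 204 and 216 at 12 h, with no overlap (-1.70 ± 0.29, adjusted p = 9.96e-05). At 30 °C Abcb11 had 109.6 to 561 at 24 h and 69.1 to 167 at 12 h, a rise of 1.70, and the steps differed by -3.40 ± 0.42 (adjusted p = 1.89e-06). Of the 25 tested genes of that list 4 fell and 4 rose, against 6.60% and 4.02% of all genes. The risers were Abcc2, an exporter of conjugates (1.21 ± 0.32), Abcg8, part of the sterol exporter (0.92 ± 0.30), Acox2, a peroxisomal oxidase of bile acid synthesis (1.08 ± 0.24), and Nr1h4, the bile acid receptor (0.87 ± 0.22). That count of risers was 2 with satellite share as a term, and also 2 in a fit of these 10 libraries alone. Cyp7a1, which catalyses the rate-limiting step from cholesterol to bile acids, was at or under 3 reads in all 10 libraries, against 14.8 to 54.8 at 0 h.

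Part of the genes that mark both ends of the liver lobule fell. Of 10 tested pericentral markers 5 fell and none rose (3 without 12 h replicate 1 or 2, and 3 with satellite share as a term), and of 12 tested periportal markers 4 fell and none rose. Of all genes, 6.60% fell and 4.02% rose. No member of either list was higher at an unadjusted p under 0.05. Glul, glutamine synthetase of the cells around the central vein (chr1:153899944-153909723), had 67.9, 107, 107, 32.8 and 28.1 at 24 h and 266, 238, 139, 106 and 77.3 at 12 h. The groups overlapped, with replicates 4 and 5 lowest in each, and the difference was -1.31 ± 0.29 (adjusted p = 0.00272). Pigr, the receptor that carries antibodies across cells, had 51.0 to 104 at 24 h and 139 to 255 at 12 h (-1.44 ± 0.24, adjusted p = 9.39e-05). Cyp2f2, a periportal enzyme, had 32.2 to 51.0 at 24 h and 80.7 to 159 at 12 h (-1.43 ± 0.28, adjusted p = 0.000602).

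The step at 22 °C did not carry the metabolic genes upward as a group, and here it differed from 30 °C. Of 23 tested genes of cholesterol synthesis and uptake none rose at 22 °C (none at an unadjusted p under 0.05 either) and 3 fell, whereas at 30 °C 18 rose. The difference of steps was negative for 17 of 23. Of all genes, 4.02% rose and 6.60% fell at 22 °C, 11.6% rose at 30 °C, and 5.78% had a negative difference. The 3 that fell, Sqle, Cyp51 and Msmo1, are a fragile count. It was 5 with satellite share as a term, 0 without replicate 3 or 5 at 12 h or 1 or 3 at 24 h, 1 without replicate 1 or 2 at 12 h or 2 at 24 h, and 5 without 24 h replicate 4 or 5. It was also 0 without the filter on low values, 0 in a fit of the 10 libraries alone and 1 after upper-quartile rescaling. Msmo1, an enzyme that removes methyl groups from sterols (chr8:64718139-64733792), had 101, 57.5, 88.9, 149.9 and 154 at 24 h and 189, 127, 163, 184 and 202 at 12 h at 22 °C, with overlap. At 30 °C it had 327 to 520.5 at 24 h and 115 to 138 at 12 h, without overlap, and the steps differed by -2.26 ± 0.34 (adjusted p = 2.47e-05).

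Among 41 tested genes for the urea cycle or amino acid breakdown, 12 fell and 2 rose at 22 °C, where 6.60% and 4.02% of all genes did. At 30 °C 24 rose and 2 fell, where 11.6% and 9.52% of all genes did. The difference of steps was negative for 20, against 5.78% of all genes. Cps1, the entry enzyme of the urea cycle (chr1:67123026-67231259), had 472, 388, 431, 432 and 925 at 24 h and 1362, 1598, 938, 1111 and 632 at 12 h. Replicate 5 was highest at 24 h and lowest at 12 h, and these 2 values overlapped the other group. The difference was -1.10 ± 0.23 (adjusted p = 0.00117) at 22 °C and 1.46 ± 0.24 at 30 °C, where libraries had 1938 to 2806 at 24 h and 627 to 1110.2 at 12 h, and the steps differed by -2.56 ± 0.33 (adjusted p = 4.13e-06). Bhmt, which makes methionine from homocysteine, did not pass at 22 °C, with 788, 798, 736, 1096 and 2016 at 24 h and 1895, 1414, 1074, 1423 and 666 at 12 h. At 30 °C it had 1460.3 to 7879 at 24 h and 109.7 to 359 at 12 h, and the steps differed by -4.51 ± 0.55 (adjusted p = 1.84e-06).

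Fatty acid oxidation and ketogenesis gave 4 risers and 4 fallers among 37 tested genes, where 4.02% and 6.60% of all genes rose and fell. At 30 °C 22 rose and 2 fell, where 11.6% and 9.52% of all genes did. The difference of steps was negative for 15, against 5.78% of all genes. Fabp1, the main fatty acid carrier of hepatocytes (chr6:71199827-71205023), had 221, 271, 138, 173 and 380.5 at 24 h and 930.1, 1413, 1524, 612 and 639.8 at 12 h, with no overlap (-2.09 ± 0.27, adjusted p = 1.29e-06). At 30 °C Fabp1 had 793 to 1713 at 24 h and 261 to 328 at 12 h, a rise of 1.88, and the steps differed by -3.98 ± 0.39 (adjusted p = 6.73e-08). The count of 4 fallers was 2 without replicate 2 or 3 at 12 h or 3 at 24 h. In a fit of the 10 libraries alone 2 members of the list rose and 1 fell. Cd36, a fatty acid importer, rose at both temperatures, with 189.6 to 211 at 24 h and 82.3 to 154 at 12 h at 22 °C (0.94 ± 0.18, adjusted p = 0.000617).

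Lipid droplet genes were among the largest rises. Plin4 (chr17:56100591-56109803) and Plin5 (chr17:56111601-56117596), neighbours on chromosome 17, encode perilipins, proteins that coat lipid droplets. Plin4 had 75.8, 33.2, 75.6, 76.1 and 94.8 at 24 h and 4.78, 3.96, 5.68, 5.14 and 19.1 at 12 h, and 0 to 1.27 at 0 h. Even 12 h replicate 5, which stood above the other 12 h libraries, lay below every 24 h library (3.19 ± 0.52, adjusted p = 6.58e-05). At 30 °C Plin4 had 6.93 to 29.7 at 24 h and 6.61 to 17.8 at 12 h, and the steps differed by 3.08 ± 0.76 (adjusted p = 0.00798). Plin5 had 105, 52.9, 117, 152 and 139 at 24 h and 18.1, 26.7, 21.8, 5.14 and 33.1 at 12 h (2.50 ± 0.41, adjusted p = 5.95e-05), and it also rose at 30 °C (1.35 ± 0.43, adjusted p = 0.0222). A list of 18 tested lipid droplet and lipolysis genes was drawn up after these values were seen, so it is a description: 6 passed as higher. Beside the perilipins these were Cidec, which fuses droplets (48.8 to 101 at 24 h, 14.3 to 38.8 at 12 h), Fitm2, needed for droplet formation (40.6 to 80.4 at 24 h, 7.60 to 30.0 at 12 h), G0s2, an inhibitor of lipolysis (111 to 209 at 24 h, 25.7 to 55.9 at 12 h), and Mgll, monoglyceride lipase (log2 difference 1.53 ± 0.26). Plin2, the most general coat protein (726 to 1099 at 24 h, 478 to 730.0 at 12 h), Pnpla2, the main triglyceride lipase (log2 difference -0.23 ± 0.24), and Hilpda, an inhibitor of that lipase (-0.04 ± 0.41), did not pass.

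In glucose metabolism G6pc, which releases free glucose, had 71.1, 116, 109.6, 107 and 54.2 at 24 h and 50.5, 34.6, 33.2, 12.9 and 29.1 at 12 h (1.55 ± 0.38, adjusted p = 0.00579), and 69.4 to 99.1 at 0 h. Of the 19 tested genes of gluconeogenesis and glycogen 3 rose and 2 fell, against 4.02% and 6.60% of all genes. With satellite share as a term 1 rose. Pck1, the first committed enzyme of gluconeogenesis, had 379 to 1157 at 24 h and 558 to 1237 at 12 h and did not pass (adjusted p = 0.417).

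Few respiratory chain genes passed at 22 °C: 3 of 74 tested fell and 1 rose, against 6.60% and 4.02% of all genes. At 30 °C 50 of them rose, where 11.6% of all genes did. Atp5c1, a subunit of ATP synthase, had 457 to 705 at 24 h and 722 to 892 at 12 h (-0.55 ± 0.14, adjusted p = 0.0068), and its steps differed by -1.28 ± 0.20 (adjusted p = 3.76e-05). The difference of steps was negative for 30 of the 74, for 17 after upper-quartile rescaling and for 18 without the filter on low values. In the main fit 5.78% of all genes had a negative difference. The 3 fallers were 1 without replicate 1 or 2 at 12 h or 3 at 24 h, and 0 with satellite share as a term. Among 77 tested cytosolic ribosomal protein genes 9 rose and none fell (none at an unadjusted p under 0.05 either), and 72 had a positive difference, with a median of 0.29. Over all 8702 genes 4.02% rose, and 4382 had a positive difference. The count of ribosomal risers was 4 without 12 h replicate 1, 5 without 24 h replicate 4 and 18 with satellite share as a term. Rplp0, of the ribosomal stalk, had 382, 393, 342, 407 and 367 at 24 h and 264, 244, 245, 278 and 282 at 12 h, with no overlap (0.53 ± 0.10, adjusted p = 0.000492). At 30 °C 47 of the 77 rose, and the difference of steps was negative for 1, where 11.6% and 5.78% of all genes rose and had a negative difference.

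**Figure D3:**
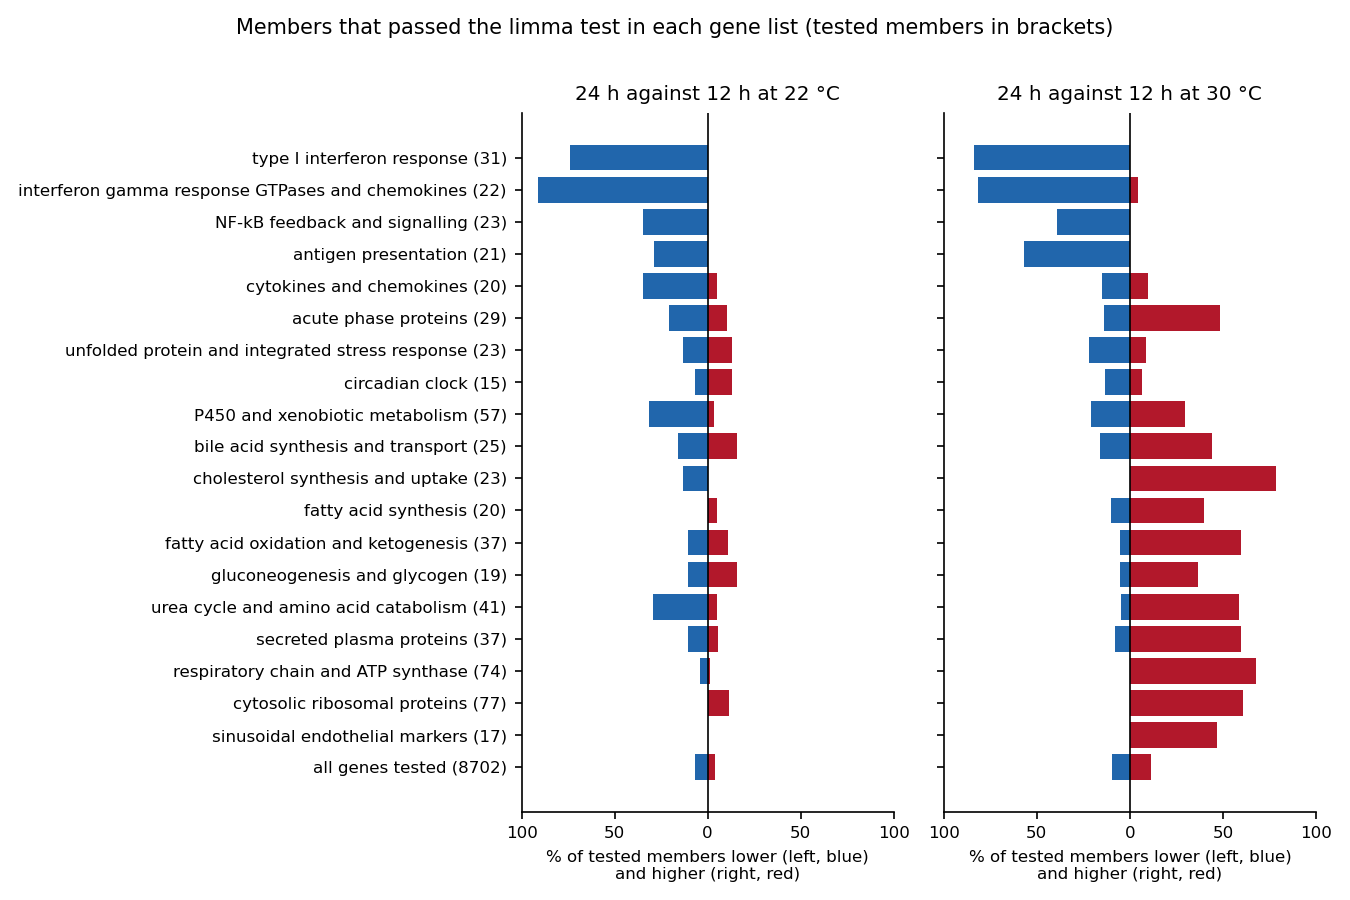
Share of the tested members of 19 gene lists and of all 8702 genes that were lower (left of 0) or higher (right of 0) at 24 h than at 12 h, at 22 °C (left panel) and 30 °C (right panel), at a limma adjusted p under 0.05. Both interferon lists extend left at both temperatures (23 of 31 and 20 of 22 at 22 °C). Cholesterol genes extend right at 30 °C (18 of 23) and left at 22 °C (3 of 23). That count of 3 is fragile, and it was 0 without the filter on low values or in a fit of the 10 libraries alone.

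**Figure D4:**
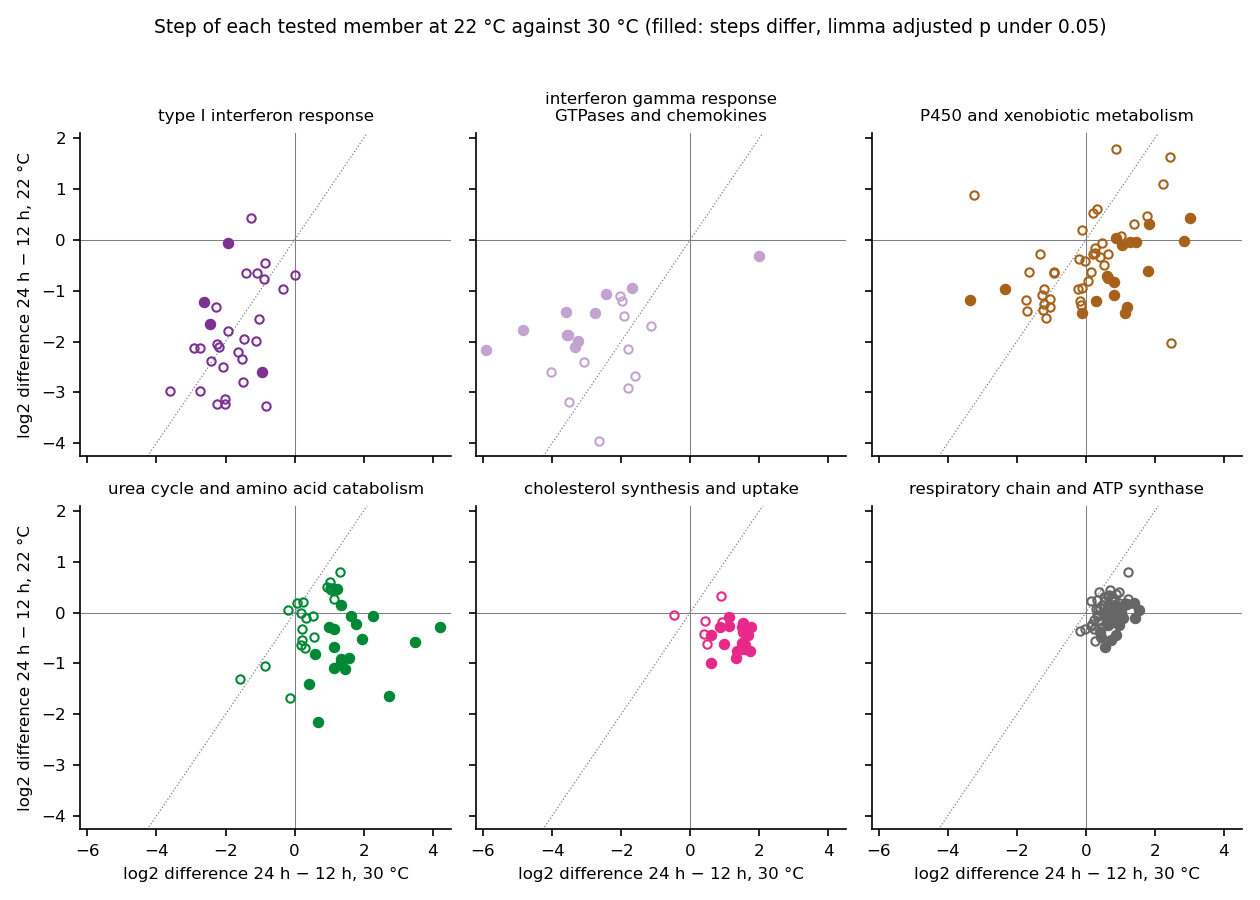
Log2 difference of 24 h minus 12 h for each tested member of 6 lists, at 22 °C (vertical) against 30 °C (horizontal), with a dotted line where both are equal. Filled points are genes whose steps differed (limma adjusted p under 0.05), 17 of 23 for cholesterol synthesis and 10 positive and 1 negative of 22 for the interferon gamma list.

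Stress genes changed in both directions. Of 23 tested genes of the unfolded protein and integrated stress response 20 were above 0 h at 24 h, against 19.0% of all genes. In the step 3 rose and 3 fell, against 4.02% and 6.60% of all genes, and with satellite share as a term 1 rose and 1 fell. Ppp1r15a, which ends the integrated stress response, had 149 to 351 at 24 h and 421 to 884 at 12 h (-1.32 ± 0.30, adjusted p = 0.0032), and Xbp1, a factor of the unfolded protein response, fell by 0.78 on the log2 scale. The 3 risers, the chaperone helpers Calr, Sdf2l1 and Manf, were lost together without any one of 12 h replicates 1 and 3 and 24 h replicates 1, 2 and 3 (count 0), and 1 was left without 12 h replicate 2. The fallers numbered 6 without 12 h replicate 5.

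Of 15 tested clock genes 2 rose and 1 fell, 3 in all, where 10.6% of all genes passed. Arntl, which encodes the clock activator BMAL1 (chr7:113207465-113314126), had 21.2, 18.8, 12.9, 20.7 and 11.6 at 24 h and 4.85, 10.6, 3.05, 11.7 and 6.72 at 12 h, and 7.60 to 22.8 at 0 h. The groups overlapped by 12 h replicate 4, and the difference was 1.19 ± 0.37 (adjusted p = 0.0332). The adjusted p was 0.0865 without 12 h replicate 1, 0.118 without 12 h replicate 3, 0.0775 without 24 h replicate 1, 0.0612 without 24 h replicate 2 and 0.0791 without 24 h replicate 4. Arntl also rose at 30 °C (1.58 ± 0.39, adjusted p = 0.00355). Clock, the partner of BMAL1, had 13.4 to 29.6 at 24 h and 8.78 to 18.0 at 12 h (0.70 ± 0.22, adjusted p = 0.0383). Its adjusted p was 0.0759 without 12 h replicate 1, 0.114 without 12 h replicate 2, 0.0989 without 12 h replicate 4, 0.104 without 24 h replicate 1 and 0.132 without 24 h replicate 5. Nfil3, a repressor tied to the clock, had 18.2 to 46.6 at 24 h and 35.5 to 92.9 at 12 h (-1.15 ± 0.31, adjusted p = 0.0111). A time of day apart by the same interval as the step cannot be told apart from time since LPS. Per2 did not pass (8.22 to 48.7 at 24 h, 8.85 to 12.9 at 12 h, adjusted p = 0.606), and Dbp was too low to test.

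Among hepatocyte transcription factors Cebpa, which drives many metabolic genes (chr7:35119293-35121928), had 29.8, 38.3, 30.5, 13.1 and 28.6 at 24 h and 72.9, 59.4, 72.7, 97.3 and 48.6 at 12 h, with no overlap (-1.33 ± 0.27, adjusted p = 0.000813). Of 22 tested factors 3 fell and 2 rose, against 6.60% and 4.02% of all genes. Cebpa was the faller left without replicate 1 or 2 at 12 h or 1 or 4 at 24 h, or with satellite share as a term, when the count was 1. Rbm3, a cold-induced RNA-binding protein (chrX:8138975-8145880), had 409.6, 356, 415, 487 and 376 at 24 h and 290.1, 234, 279, 227 and 258 at 12 h, with no overlap (0.66 ± 0.18, adjusted p = 0.0142). At 30 °C Rbm3 had 189.6 to 278 at 24 h and 244 to 289 at 12 h, and the steps differed by 0.89 ± 0.26 (adjusted p = 0.0319). That adjusted p was 0.0573 without 12 h replicate 2, 0.0552 without 12 h replicate 4, 0.0515 without 24 h replicate 3 and 0.0608 without 24 h replicate 4. Cirbp, the other cold-inducible RNA-binding protein, had 21.2 to 76.1 at 24 h and 34.5 to 56.5 at 12 h and did not pass (adjusted p = 0.931).

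Of the remaining large changes, Cited2, a co-activator that competes with HIF1 (chr10:17723218-17725674), had 6.99, 23.4, 4.38, 9.65 and 14.9 at 24 h and 57.4, 77.1, 117, 172 and 55.5 at 12 h, with no overlap (-2.97 ± 0.35, adjusted p = 4.5e-07). At 30 °C it had 7.04 to 13.2 at 24 h and 10.0 to 17.0 at 12 h, and the steps differed by -2.60 ± 0.51 (adjusted p = 0.000772). Fam20a, a pseudokinase that aids a secretory kinase, had 15.0 to 28.1 at 24 h and 0.443 to 4.35 at 12 h (2.69 ± 0.34, adjusted p = 1.12e-06). Tubb2a, a tubulin, had 458, 612, 527, 611 and 521 at 24 h and 286, 211, 204, 194 and 136 at 12 h (1.43 ± 0.24, adjusted p = 9.96e-05), whereas the actin gene Actb had 1528 to 2084 at 24 h and 2219 to 3567 at 12 h (-0.58 ± 0.15, adjusted p = 0.00773). Itga2, an integrin chain, had 9.73 to 40.4 at 24 h and 0 to 7.68 at 12 h (2.93 ± 0.55), with 2 of the 12 h libraries at or under 3 reads.

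The largest negative differences of steps among named genes were those of Cacna1d, Ppp1r3c, Enho, Bhmt and Dpys. Cacna1d, a pore-forming subunit of a calcium channel, had 0, 0, 11.3, 21.4 and 40.5 at 24 h and 6.61, 12.5, 28.3, 29.2 and 37.6 at 12 h at 22 °C, a step that did not pass (-1.65 ± 0.80, adjusted p = 0.198). The 30 °C libraries had 58.5 to 186 at 24 h and 0.000160 to 44.3 at 12 h, and the steps differed by -5.25 ± 1.17 (adjusted p = 0.00292). Ppp1r3c, which targets a phosphatase to glycogen (chr19:36731731-36736653), had 0, 0, 0, 0 and 4.06 at 24 h and 4.10, 6.92, 4.74, 14.1 and 1.82 at 12 h at 22 °C, with 4 of the 24 h libraries at 0. At 30 °C it had 2.87 to 39.1 at 24 h and 0.848 to 4.13 at 12 h, and the steps differed by -4.95 ± 0.78 (adjusted p = 5.61e-05). Enho, which encodes the secreted peptide adropin, was at 0 to 5.42 at 24 h and 0 to 4.55 at 12 h at 22 °C, against 21.6 to 38.6 at 0 h. At 30 °C it had 16.2 to 48.8 at 24 h and 0 to 1.70 at 12 h (difference of steps -4.64 ± 0.69, adjusted p = 2.25e-05). The largest positive differences were those of Olig1, a transcription factor known from the nervous system (3.76 ± 1.03, adjusted p = 0.0186, and 0.0536 without the filter on low values), and Tgtp1. Tgtp1, an interferon-induced GTPase, fell at both temperatures. It had 12.6 to 31.9 at 24 h and 78.7 to 128 at 12 h at 22 °C. At 30 °C it had 0.0436 to 8.84 at 24 h and 50.6 to 160.1 at 12 h (difference of steps 3.73 ± 0.73, adjusted p = 0.000758). Its near-identical copy Tgtp2 had a difference of the other sign that did not pass (-1.32, limma adjusted p = 0.690). Reads may be split between the copies, so the size for Tgtp1 alone is uncertain.

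Markers of other cell types gave few calls in this step. None of 14 tested Kupffer cell and macrophage markers passed (2 lower at an unadjusted p under 0.05), with a summed signal of 124 to 265 at 24 h and 168 to 219.6 at 12 h. None of 10 neutrophil and monocyte markers passed, nor at an unadjusted p under 0.05, with sums of 235 to 476 at 24 h and 358 to 496 at 12 h, against 91.0 to 123 at 0 h. None of 17 sinusoidal endothelial markers passed (1 higher and 1 lower at an unadjusted p under 0.05), with sums of 252 to 469 at 24 h and 253 to 383 at 12 h. At 30 °C 8 of these 17 rose, and the difference of steps was negative for 6. Of all genes, 11.6% rose at 30 °C and 5.78% had a negative difference. Of 21 lymphocyte and natural killer cell markers 3 could be tested and none passed, nor at an unadjusted p under 0.05, and Cd4 and Igkc were at 0 in all 10 libraries. Of 14 stellate cell and matrix markers 1 rose, Sparc (0.91 ± 0.19), and 2 fell. Of 4 tested erythroid markers 1 fell, Hba-a1 (-1.16 ± 0.33), and the summed erythroid signal was 484 to 1269.6 at 24 h and 926 to 2519 at 12 h. Of 2 tested cholangiocyte markers Sox9 fell (-1.29 ± 0.37), and Cftr, Cldn4 and Anxa13 were at 0 in all 10 libraries.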

How the data were processed

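CEL-Seq2 libraries of bulk liver RNA were read from the 3' end, per the labels' protocols, with primers holding both a barcode and a molecular identifier (UMI). Reads went through Trimmomatic, kallisto and sleuth, per the submitters' processing notes. Versions, the genome build and any collapsing of UMIs: not given in the sources used here. For each gene and library the authors deposited 2 values, both treated as signal: scaled reads per base, used here, and a column named TPM whose library sums are not constant, used as an alternative. How the authors scaled libraries is likewise not stated. All 34829 identifiers are Ensembl genes, of which 34406 matched a symbol. Values are not counts, and the estimated reads are the library sum divided by its commonest value above 0, so the floors of 3 reads cover counting error only.

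The 8702 genes with a mean of at least 5 over 36 libraries were tested on log2(signal + 1), which understates changes of low genes, with limma 3.58.1 (lmFit, eBayes with trend) in R 4.3.3. All 36 libraries and 8 group means entered 1 fit, and p-values were adjusted by Benjamini-Hochberg over all genes within each contrast, threshold 0.05. Differences are given ± SE. The fit was tested on simulated data. The members and the 37 gene lists were chosen with earlier results of these data known, and 2 more lists were added after values were seen. Named genes were the 10 largest rises and falls whose higher group averaged 20 or more, up to 4 of smallest p per list with at least 3 calls, 20 followed genes and the 5 largest differences of steps each way. Genes outside that rule are said to be chosen later or are named to spell out a list's count. A few named genes are not reported here. Near-identical copies, such as the Gbp, Saa, Cyp2c, Tgtp and actin genes, are uncertain. Coordinates are 1-based from GENCODE M21 (GRCm38), and promoters come from RefSeq (GRCm38.p6); those shown were chosen after values were seen, in place of the planned choice of clock genes and 1 gene a list. Alternatives covered the added constant, the filter, the second column, upper-quartile rescaling, array weights, a replicate block, a fit of the 10 libraries alone and leaving out each library. A fit without 30 °C 4 h replicate 4, whose satellite share was 21.97%, and one with satellite share as a term were chosen after seeing the data.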

Additional observations from a re-analysis of the deposited data

Results flagged for a closer look

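In 23 of 246 groups of 5 libraries examined, the highest or lowest library stood apart from the rest by Dixon's criterion at the 95% level, where chance gives about 1 in 20. Values are signals. Replicate 2 at 24 h was highest for Tgtp2 (18.1), Cxcl5 (6.75), Cyp2c37 (200.1), Acaa1b (224), Mki67 (1.29) and Olig1 (59.1). Replicate 2 at 24 h was lowest for Onecut2 (130.5). Replicate 3 at 24 h was lowest for Actg1 (71.5). Replicate 4 at 24 h was highest for Cyp7a1 (0.553). Replicate 5 at 24 h was highest for Slco1b2 (65.4), Ppp1r3c (4.06), Cps1 (925) and Bhmt (2016). Replicate 1 at 12 h was highest for Lrat (18.4). Replicate 2 at 12 h was highest for Dbp (11.6) and Mki67 (32.5). Replicate 3 at 12 h was highest for Cyp7a1 (1.47). Replicate 4 at 12 h was highest for S100a8 (167). Replicate 4 at 12 h was lowest for Slco1b2 (65.1). Replicate 5 at 12 h was highest for Plin4 (19.1), Olfr1199 (19.1), Shld2 (41.0) and Acox2 (93.2). 

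Of 119 named genes tested, 46 had steps that differed between 22 °C and 30 °C (limma, 22 °C minus 30 °C, log2), against 7.65% of all genes. Part of the named genes were chosen for the size of this difference and others for their step at 22 °C. The count therefore follows from that choice and is not a result about these genes. The difference was negative for Cacna1d (-5.25), Ppp1r3c (-4.95), Enho (-4.64), Bhmt (-4.51), Dpys (-4.38), Fabp1 (-3.98), Abcb11 (-3.40), Slco1b2 (-3.26), Lrat (-3.26), Serpind1 (-2.82), Cited2 (-2.60), Cps1 (-2.56), Gls2 (-2.48), Msmo1 (-2.26), Acaa1b (-2.21), Cyp51 (-2.13), Crp (-2.08), Cyp2c68 (-1.91), Haao (-1.82), Sqle (-1.60), Cyp2b9 (-1.48), Pck1 (-1.37), Cyp2f2 (-1.32), Gulo (-1.32), Atp5c1 (-1.28), Ccl9 (-1.25), Ndufv3 (-1.23) and Ndufa10 (-0.80). It was positive for Olig1 (3.76), Tgtp1 (3.73), Susd1 (3.24), Cxcl14 (3.23), Plin4 (3.08), Gbp2 (3.07), Itga2 (2.94), Olfr1199 (2.74), Fam20a (1.80), Gbp7 (1.67), Serpina6 (1.57), Cyp1a2 (1.37), Acox2 (1.36), Gbp6 (1.32), Irgm1 (1.26), Iigp1 (1.24), Rbm3 (0.89) and Cxcl9 (0.73). Some of these calls are fragile. Without the filter on low values the limma adjusted p was 0.111 for Susd1, 0.103 for Cyp2f2, 0.0786 for Cxcl9 and 0.0703 for Irgm1. The same calls were also lost when certain single libraries were left out.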

How the results depend on the processing

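Counts over all genes kept within 1.5 times their main value in 178 of 182 recomputations. The exceptions were genes higher in the 22 °C step, 209 when the 10 libraries of the step were fitted alone, the 12 h minus 0 h comparison at 22 °C with a minimum mean of 20, which gave 1182 higher and 1122 lower, and positive differences of steps, 267 with array weights. The causes were not tested, beyond that the stricter minimum tests fewer genes and the fit alone uses fewer libraries. Leaving out 1 library at a time gave 247 to 416 genes higher and 409 to 672 lower in the step, and 118 to 216 positive and 417 to 581 negative differences of steps. With satellite share as a term the step had 270 higher and 505 lower. For single genes, 222 recomputations lost a call and 18 gained one. In 3587 the outcome stayed as in the main fit, which includes genes that passed in neither. No gene that passed in the main fit changed direction. Of counts over lists, 764 kept within 1.5 times and 79 did not. Lost calls of the step include, with satellite share as a term, those of G6pc, Cidec, Atp5c1 and Ppp1r15a (adjusted p = 0.0627, 0.0795, 0.0961 and 0.0589), and in the fit of the 10 libraries alone, those of Glul, Xbp1 and Clock (adjusted p = 0.0856, 0.0759 and 0.169). Depth limits genes near 3 reads.

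Replicate numbers did not pair the samples: the correlation of deviations between equally numbered 24 h and 12 h libraries was -0.0386 (replicate 3) to 0.106 (replicate 5), and 1 of 5 exceeded 0.1. With the replicate block the step had 347 genes higher and 576 lower, and the differences of steps were 145 positive and 476 negative.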

Other observations

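Secreted plasma proteins other than the acute phase list moved in part at 22 °C. Of 37 tested members 4 fell and 2 rose, where 6.60% and 4.02% of all genes did. At 30 °C 22 rose and 3 fell, where 11.6% and 9.52% of all genes did. The difference of steps was negative for 18 and positive for 1, against 5.78% and 1.87% of all genes. The count that fell at 22 °C was 7 without 12 h replicate 5, without 24 h replicate 5, with a minimum mean of 20 and with array weights. Serpina6, the carrier of glucocorticoids in plasma, had 23.9, 61.2, 22.5, 27.6 and 12.7 at 24 h and 197, 283, 182, 139 and 59.7 at 12 h, with a log2 difference of -2.52 ± 0.34 (limma adjusted p = 3.42e-06), and its steps differed by 1.57 ± 0.50 (adjusted p = 0.046). That adjusted p was 0.0512 without 12 h replicate 3, 0.0659 without 12 h replicate 4, 0.098 without 12 h replicate 5, 0.0577 without 24 h replicate 1, 0.107 without 24 h replicate 2, 0.0569 without 24 h replicate 3 and 0.0656 without 24 h replicate 4. For Serpina6 it was also 0.122 without the filter on low values and 0.0565 with the replicate block. With 5 added before the log, its difference of steps was 0.55 (adjusted p = 0.545), so its size depends on the added constant. Serpina7, which carries thyroid hormone, and Serpind1, an inhibitor of thrombin, had differences of -1.62 ± 0.35 and -1.23 ± 0.31 in the step at 22 °C. Apoa1, the main protein of high-density lipoprotein, had 2304 to 2835 at 24 h and 1282 to 2309 at 12 h (0.56 ± 0.14, adjusted p = 0.00681).

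The other lists are read against the 10.6% of all genes that passed in the step, and against the 19.0% that were above 0 h at 24 h. Of 24 tested genes of the actin cytoskeleton and regeneration, Tubb2a and Tubb5 rose and Actb and Actg1 fell. Of 31 proteasome genes 2 rose, Psmb5 and Psmd2. Of 17 genes of growth arrest and stress survival 2 fell, Gadd45a (-2.29 ± 0.58) and Junb (-0.97 ± 0.28), while 15 were above 0 h at 24 h. Of 22 ribosome biogenesis genes 1 rose, Nop16, while 17 were above 0 h at 24 h. Of 20 genes of fatty acid synthesis Insig2 rose (1.87 ± 0.24), of 17 genes of metal and oxidant defence Ftl1 rose, and of 18 major urinary proteins, which share sequence, Mup20 fell. Of 11 cell cycle genes Rrm2 rose and Ccnd1 fell, and of 12 heat shock and chaperone genes Rbm3 rose and Bag3 fell. Of the 9 hepatocyte markers Apoa1 rose and Fabp1 and Cps1 fell. The genes given here beyond the rule for named genes are those that passed in their list. Of the 12 tested satellite repeat genes 3 rose at 22 °C and 10 at 30 °C.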
